A study of Mus musculus with 6 samples.

Results

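The 10 genes described here are the MEF2 transcription factors *Mef2a*, *Mef2c* and *Mef2d*, the class IIa histone deacetylases *Hdac4*, *Hdac5*, *Hdac7* and *Hdac9*, the calcineurin catalytic subunit *Ppp3ca*, the calcineurin regulator *Rcan1* and the calcineurin-dependent factor *Nfatc1*. They were chosen by symbol and make up 10 of the 24532 genes in the deposited table, and all 10 passed the filter on low counts. The RNA came from the gastrocnemius (GAS), a calf muscle, of male C57BL/6 mice aged 20 weeks, with 1 poly-A library per sample. The 3 WT libraries came from *Sirt6* flox/flox mice without Cre, and the 3 *Sirt6* KO-labelled libraries came from *Sirt6* flox/flox mice that also carried *Myl1-Cre*. Both groups therefore carry the floxed allele, and no group carried the Cre alone. *Myl1-Cre* is driven by the myosin light chain 1 promoter, which the paper describes as active mainly in type II fibers that no longer divide. Vessel, nerve and immune cells in the tissue are not its target. Deletion by fiber type or cell type was not measured in these libraries.

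MEF2 proteins bind the control regions of many muscle genes and are held inactive by class IIa histone deacetylases. When motor nerve activity raises calcium, kinases phosphorylate these deacetylases, 14-3-3 proteins carry them out of the nucleus, and MEF2 is released. Calcium also activates the phosphatase calcineurin, which dephosphorylates NFAT factors so that they enter the nucleus. Both routes are known for promoting the slow, oxidative fiber program. These steps act on proteins, and the present measurements are of mRNA.

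Expression levels are in normalized CPM (counts scaled to a common library size by TMM), and all log2 fold changes are for the *Sirt6* KO-labelled libraries relative to WT. The libraries held between 44845763 and 63016899 counts. *Sirt6* was itself higher in the *Sirt6* KO-labelled libraries, at 7.81, 7.44 and 6.68 CPM against 2.77, 2.23 and 2.88 CPM in WT, which is 1.48 higher on the log2 scale (standard error 0.17; edgeR quasi-likelihood test, Benjamini-Hochberg adjusted p = 0.0113). The adjusted p of *Sirt6* was 0.0606 without *Sirt6* KO 1 and 0.065 without *Sirt6* KO 3. Every direction below rests on the labels, which *Sirt6* goes against. A count per gene cannot tell reads of the floxed exons from reads of the exons left in place. The defining markers of skeletal muscle were abundant in every library, with a sum of 6 genes between 80848 and 124210 CPM. The libraries also differed in ways that crossed the groups. The summed level of 9 slow-fiber genes was 7315, 8182 and 1392 CPM in WT libraries 1, 2 and 3 and 1677, 4808 and 2075 CPM in libraries 1, 2 and 3 labelled *Sirt6* KO, so it was high in WT 1, WT 2 and *Sirt6* KO 2. The type IIa myosin gene *Myh2* supplied most of this sum in every library, with 3732, 5223 and 1256 against 1313, 2694 and 1571 CPM. The type I myosin gene *Myh7* was highest in the same 3 libraries, at 1138, 958 and 21.7 against 100, 720 and 163 CPM. The 5 erythroid genes divided the libraries in the same way, with sums of 297, 291 and 46.6 CPM against 109.8, 181 and 80.2 CPM. In bulk tissue, fewer cells or fibers of a type and less RNA per cell cannot be told apart.

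None of the 10 genes passed the adjusted threshold of 0.05 in edgeR, against 16.2% of all 13801 genes tested. At an unadjusted p under 0.05 there were 4, namely *Mef2c*, *Hdac5*, *Hdac9* and *Nfatc1*, against 35.3% of all genes tested, and for the same 4 genes the values of the groups did not overlap, against 40% of all genes tested. The last 2 shares are near the background. DESeq2's Wald test called 1 of the 10, *Nfatc1*, against 3420 of the 17190 genes given to it. For limma on log2(FPKM + 1) it was 0 of the 9 genes it could test, against 2592 of 10683. On simulated counts DESeq2 made false calls well above its nominal rate, so its calls here and below are given with caution. Those counts were drawn with edgeR's dispersions and held far fewer changed genes than were called here. The rate of false calls in these data is therefore not known. The estimate was below 0 for 9 of the 10 genes and above 0 for *Hdac5*, and it was below 0 for 7121 of all 13801 genes tested. The median was -0.32 for the 10 genes against -0.02 over all genes tested. Where the groups did not overlap, the two-sided exact permutation test gave p = 0.1, the smallest that 3 samples against 3 allow. The labels do not say whether the 3 samples of a group came from separate litters or days, so the tests measure the spread between these samples.

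**Figure D1:**
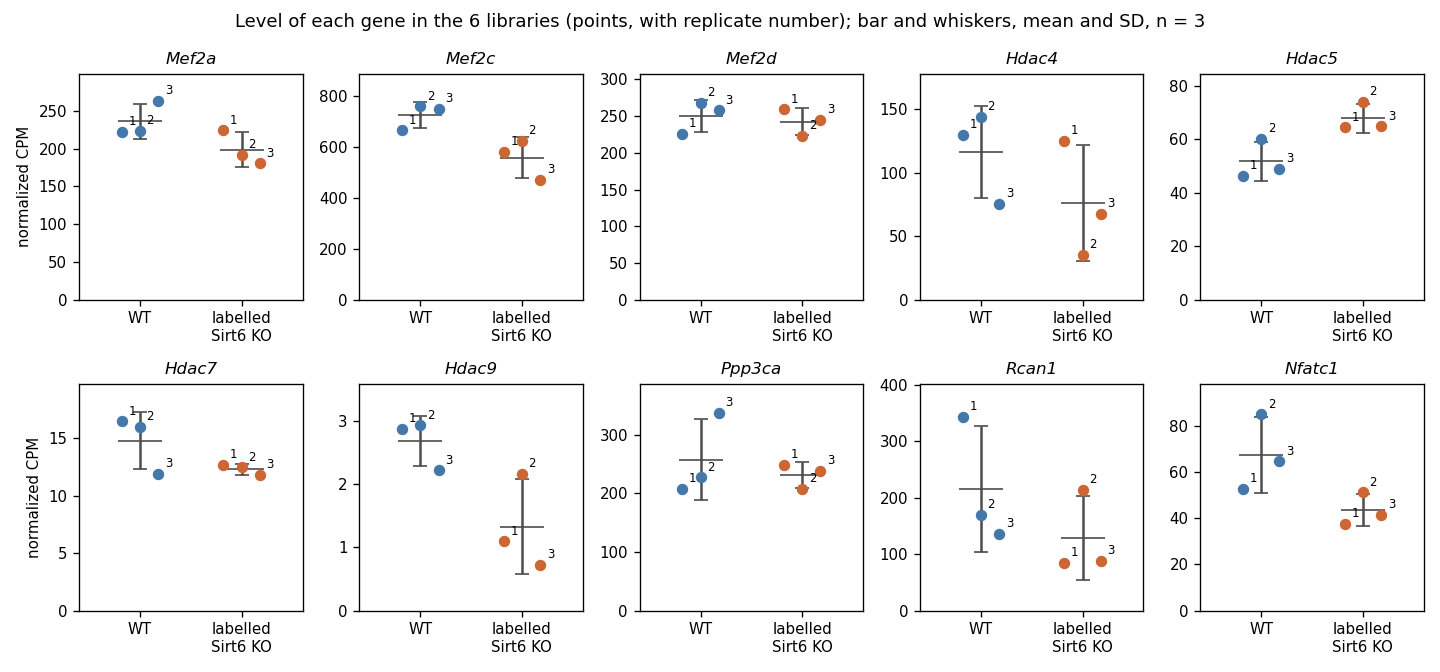
Normalized CPM (vertical axes, from 0) of the 10 genes in the 3 WT libraries (blue) and the 3 *Sirt6* KO-labelled libraries (orange), with replicate numbers; horizontal bars are means and whiskers are SDs, n = 3. The groups do not overlap for *Mef2c*, *Hdac5*, *Hdac9* and *Nfatc1*, and the points of *Hdac4* and *Rcan1* are spread widely within both groups.

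The MEF2 genes encode the DNA-binding factors on which the class IIa deacetylases act. *Mef2c* (NCBI gene 17260; RefSeq on GRCm38.p6 places it on chromosome 13 from 83504017 to 83667079) was at 663, 758 and 749 CPM in WT libraries 1 to 3 and at 581, 622 and 469 CPM in libraries 1 to 3 labelled *Sirt6* KO. Every WT value lay above every value labelled *Sirt6* KO. The means were 723 ± 52.3 and 557 ± 79.3 CPM (SD, n = 3), a log2 fold change of -0.38 (standard error 0.15, 95% interval -0.73 to -0.02), which did not pass the threshold (adjusted p = 0.125 by edgeR). The transcript is among the less GC-rich, with 40.8% GC, and after each library's trend over GC content was removed the log2 fold change was -0.08.

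*Mef2a* (NCBI gene 17258, chromosome 7, 67231163 to 67376456), another member of the family, was at 222, 223 and 263 CPM in WT and at 224, 192 and 180.4 CPM in the *Sirt6* KO-labelled libraries. The groups overlapped, because *Sirt6* KO 1 lay level with WT 1 and WT 2. The log2 fold change was -0.25 (standard error 0.13, 95% interval -0.56 to 0.07, adjusted p = 0.228 by edgeR), and it was 0.0062 after removal of the trend over GC content, which is 42.0% in this transcript. *Mef2d* (NCBI gene 17261, chromosome 3, 88141941 to 88172091), a more widely expressed member, was at 225, 268 and 258 CPM in WT and at 259, 223 and 245 CPM in the *Sirt6* KO-labelled libraries. The ranges lay over each other and the log2 fold change was -0.05 (standard error 0.12, 95% interval -0.34 to 0.24, adjusted p = 0.814 by edgeR). The fourth family gene, *Mef2b*, was near the limit of detection, at 0 CPM in 4 of the 6 libraries and at most 0.545 CPM, and was not tested.

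Levels of different genes can be compared per transcript length, for which the deposited TPM were used. The MEF2 sum was 447, 472 and 411 TPM in WT and 376, 345 and 299.8 TPM in the *Sirt6* KO-labelled libraries, with means of 443 ± 30.5 and 340.4 ± 38.5 TPM (SD, n = 3) and no overlap. By CPM per kb of the longest transcript the means were 204 and 169, also without overlap. Among single genes tested, 40% had CPM values without overlap between the groups. These sums keep the trend over GC content, after whose removal the log2 fold changes of *Mef2c* and *Mef2a* were -0.08 and 0.0062. *Mef2c* supplied most of the family sum in both groups, with 56.2% ± 0.859 in WT and 51.9% ± 3.98 in the *Sirt6* KO-labelled libraries. The share of *Mef2d* was 22.4%, 23.7% and 22.3% in WT and 26.6%, 23.7% and 29.9% in the *Sirt6* KO-labelled libraries. The groups touched without overlapping, at 23.65% in WT 2 and 23.72% in *Sirt6* KO 2. The share of *Mef2a* was alike in both groups, with a mean of 21.04% ± 1.57 and of 21.3% ± 1.29.

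**Figure D2:**
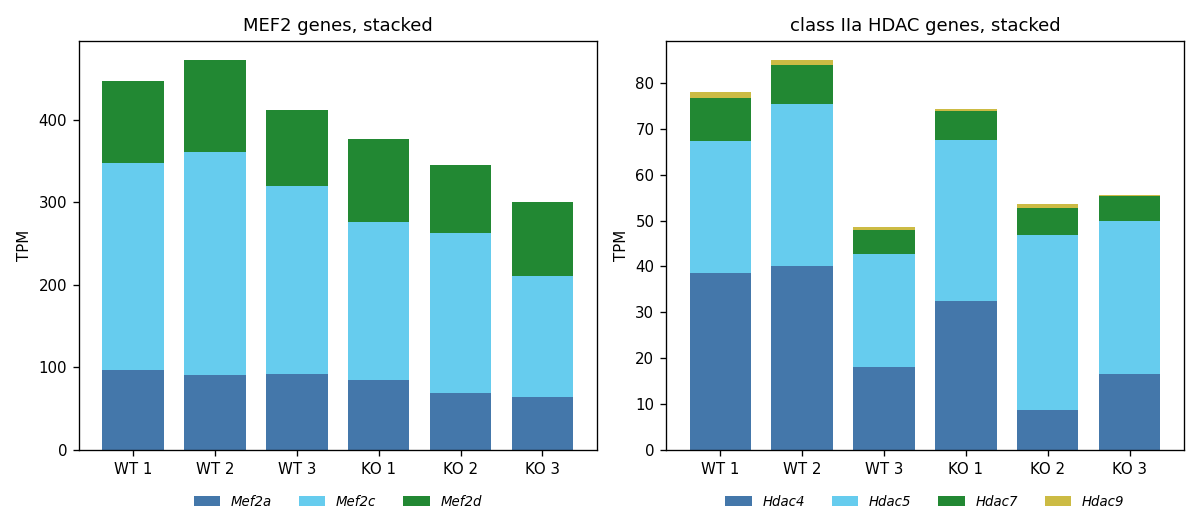
TPM (vertical axes, from 0) of the 3 MEF2 genes (left) and the 4 class IIa HDAC genes (right), stacked for each of the 6 libraries (KO, *Sirt6* KO-labelled libraries). *Mef2c* is the largest part of the left bars, whose total is lower in all 3 *Sirt6* KO-labelled libraries, and the *Hdac4* part of the right bars is smallest in *Sirt6* KO 2.

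Class IIa deacetylases bind MEF2 and bring corepressors to its target genes, since they have little catalytic activity of their own. *Hdac5* (NCBI gene 15184, chromosome 11, 102195747 to 102230172) was the one gene of the 10 with a higher mean in the *Sirt6* KO-labelled libraries. It was at 46.4, 60.1 and 49.0 CPM in WT and at 64.5, 74.0 and 64.8 CPM in the *Sirt6* KO-labelled libraries, without overlap. The means were 51.8 ± 7.27 and 67.7 ± 5.41 CPM (SD, n = 3), a log2 fold change of 0.39 (standard error 0.13, 95% interval 0.08 to 0.69), which did not pass the threshold (adjusted p = 0.0825 by edgeR). The transcript has 59.8% GC, and the log2 fold change was 0.12 after removal of the trend over GC content.

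*Hdac4* (NCBI gene 208727, chromosome 1, 91928779 to 92195702), which links loss of nerve activity to myogenin in muscle, was the most variable of the deacetylases between libraries. It was at 130.1, 144 and 75.6 CPM in WT and at 125, 35.4 and 67.8 CPM in the *Sirt6* KO-labelled libraries. The highest value exceeded the lowest by 1.91 times within WT and by 3.54 times within the *Sirt6* KO-labelled libraries, and *Sirt6* KO 1 lay within the WT range. Its SD within groups, 0.73 on the log2 scale, was at the 97.8th percentile of all genes tested. The log2 fold change of -0.61 had a standard error of 0.44 and a 95% interval of -1.65 to 0.42 (adjusted p = 0.352 by edgeR), and it was -1.17 without *Sirt6* KO 1 and -0.26 without *Sirt6* KO 2. Of the libraries high in slow-fiber genes, WT 1 and WT 2 had the highest *Hdac4* and *Sirt6* KO 2 the lowest. How far slow-fiber content bears on the *Hdac4* values was not tested.

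*Hdac7* (NCBI gene 56233, chromosome 15, 97792661 to 97844502), a class IIa deacetylase best known from endothelial cells and thymocytes, was at 16.5, 16.0 and 11.9 CPM in WT and at 12.7, 12.5 and 11.8 CPM in the *Sirt6* KO-labelled libraries. WT 3 fell within the range of the other group, and the log2 fold change was -0.26 (standard error 0.15, 95% interval -0.61 to 0.08, adjusted p = 0.242 by edgeR). Without WT 3 it was -0.40 and passed the threshold (adjusted p = 0.0246 by edgeR), and without WT 1 it was -0.17 (adjusted p = 0.536 by edgeR). In the fit without WT 3, 4582 of the 14115 genes tested passed. The summed endothelial markers were at 322, 368 and 181 CPM in WT and at 208, 219 and 219 CPM in the *Sirt6* KO-labelled libraries, and WT 3 was the lowest WT library there too. Their part in the *Hdac7* values was not tested. After removal of the trend over GC content (60.2% in this transcript) the log2 fold change was -0.53, with an adjusted p of 0.0683 by edgeR.

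*Hdac9* (NCBI gene 79221, chromosome 12, 34047580 to 34917095), itself a target of MEF2 that feeds back on it, was the lowest of the 10 genes, with 40 to 143 counts per library. It was at 2.87, 2.93 and 2.22 CPM in WT and at 1.09, 2.16 and 0.726 CPM in the *Sirt6* KO-labelled libraries. The groups did not overlap, but WT 3 and *Sirt6* KO 2 were next to each other. The log2 fold change was -1.0035 (standard error 0.40, 95% interval -1.93 to -0.07, adjusted p = 0.120 by edgeR). Without *Sirt6* KO 2 it was -1.53 and passed the threshold (adjusted p = 0.0455 by edgeR), and without *Sirt6* KO 3 it was -0.71 (adjusted p = 0.277 by edgeR). In the fit without *Sirt6* KO 2, 873 of the 14069 genes tested passed.

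The class IIa HDAC sum was 78.0, 85.0 and 48.6 TPM in WT and 74.2, 53.6 and 55.7 TPM in the *Sirt6* KO-labelled libraries, with overlap. *Hdac4* took 49.4%, 47.3% and 37.1% of the sum in WT and 43.7%, 16.2% and 29.8% in the *Sirt6* KO-labelled libraries, while *Hdac5* took 37.0%, 41.4% and 50.6% in WT and 47.4%, 71.3% and 59.9% in the *Sirt6* KO-labelled libraries. Both sets of shares overlapped between the groups. Which of them was the larger depended on the length scale in WT 3 and *Sirt6* KO 1, where CPM per kb of the longest transcript gave *Hdac4* 44.5% and 51.6% and *Hdac5* 43.2% and 39.8%. *Hdac7* stayed between 8.39% and 11.9%, and *Hdac9* between 0.437% and 1.67%. The HDAC sum divided by the MEF2 sum was 0.174, 0.180 and 0.118 in WT and 0.197, 0.155 and 0.186 in the *Sirt6* KO-labelled libraries, again with overlap.

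The start regions of *Hdac5* and *Mef2a* are shown because each holds a match to the MEF2 motif, the element bound by the factors described above. They are RefSeq windows of 300 bases on GRCm38.p6 around an annotated transcription start, on the minus strand, at chr11:102230123-102230422 for *Hdac5* and chr7:67372809-67373108 for *Mef2a*. Capitals mark the MEF2 motif and, in *Hdac5*, also TGACG, the half-site of the cAMP response element.
Hdac5: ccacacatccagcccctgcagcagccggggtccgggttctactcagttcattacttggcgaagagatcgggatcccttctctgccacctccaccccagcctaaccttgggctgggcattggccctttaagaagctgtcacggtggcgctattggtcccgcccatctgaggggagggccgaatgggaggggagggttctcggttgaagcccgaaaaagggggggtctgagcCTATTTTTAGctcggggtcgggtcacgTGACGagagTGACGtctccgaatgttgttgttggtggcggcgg
Mef2a: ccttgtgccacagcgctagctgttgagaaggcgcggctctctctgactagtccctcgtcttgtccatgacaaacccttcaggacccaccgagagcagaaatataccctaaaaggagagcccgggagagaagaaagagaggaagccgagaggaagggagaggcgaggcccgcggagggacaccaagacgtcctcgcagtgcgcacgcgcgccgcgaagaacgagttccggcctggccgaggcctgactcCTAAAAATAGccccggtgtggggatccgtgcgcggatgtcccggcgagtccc
Counted from 1 at the 5′ end of the window, the MEF2 motif spans positions 231 to 240 in *Hdac5* and 249 to 258 in *Mef2a*, and the half-sites of *Hdac5* begin at 258 and 267. The search covered RefSeq windows of 8 of the 10 genes, 15 in all. No window was listed for *Ppp3ca*, and *Nfatc1* was left out of the search. Of these 15 windows, 2 held the MEF2 motif on either strand, against 1.86% of all 32851 windows of the same length. TGACG was found in 3 of the 15 windows, those of *Hdac4*, *Hdac5* and 1 of *Rcan1*, against 20.8% of all windows. A match describes the letters only. *Hdac5* and *Mef2a*, which share the motif, had log2 fold changes of 0.39 and -0.25.

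Calcineurin consists of a catalytic and a regulatory subunit and is turned on by calcium and calmodulin. *Ppp3ca* (NCBI gene 19055, chromosome 3, 136669714 to 136937727), the alpha catalytic subunit, was at 208, 228 and 338 CPM in WT and at 249, 207 and 239 CPM in the *Sirt6* KO-labelled libraries. WT 3 stood above the other 5 libraries, which overlapped. The log2 fold change was -0.15 (standard error 0.20, 95% interval -0.62 to 0.31, adjusted p = 0.614 by edgeR), and it was 0.09 without WT 3.

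*Rcan1* (NCBI gene 54720, chromosome 16, 92391951 to 92466169) encodes a protein that binds and restrains calcineurin. One of its transcripts starts at an internal promoter that calcineurin and NFAT are known to induce, so its level is often read as a sign of calcineurin activity. It was at 343, 169 and 135 CPM in WT and at 84.3, 214 and 87.8 CPM in the *Sirt6* KO-labelled libraries. The highest value exceeded the lowest by 2.54 times within each group, and *Sirt6* KO 2 lay above WT 2 and WT 3. The log2 fold change of -0.75 had a standard error of 0.46 and a 95% interval of -1.83 to 0.34 (adjusted p = 0.286 by edgeR), and it was -1.31 without *Sirt6* KO 2 and -0.23 without WT 1. Its SD within groups was 0.73 on the log2 scale, at the 97.8th percentile of all genes tested. The 3 libraries with the most *Rcan1* were WT 1, *Sirt6* KO 2 and WT 2, which are also the 3 with the most slow-fiber RNA. Among the slow-low libraries, WT 3 had 135 CPM against 84.3 and 87.8 CPM in *Sirt6* KO 1 and 3. The part of the slow-fiber genes in these values was not tested.

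The window at the internal start of *Rcan1* is shown because it is the region of the gene that calcineurin signalling is known to act on. It lies at chr16:92400029-92400328 on the minus strand of GRCm38.p6 (RefSeq). Capitals mark TGACGTCA, the full cAMP response element.
Rcan1: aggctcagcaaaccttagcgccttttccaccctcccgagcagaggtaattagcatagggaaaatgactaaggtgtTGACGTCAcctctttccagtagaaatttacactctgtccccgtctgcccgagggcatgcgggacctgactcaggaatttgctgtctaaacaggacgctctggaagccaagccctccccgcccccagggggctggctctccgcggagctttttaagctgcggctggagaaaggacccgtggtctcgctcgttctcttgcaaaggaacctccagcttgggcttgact
The element spans positions 76 to 83 of the window, counted from 1 at its 5′ end, and contains the half-site on both strands. A full element was found in 1 of the 15 windows of these genes and in 1.79% of all 32851 windows. The core GGAAA of NFAT sites occurred 3 times in this window on either strand, but 61.3% of all windows hold at least 1. The deposited counts are per gene and do not separate the transcripts from the upstream start and the internal start.

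**Figure D3:**
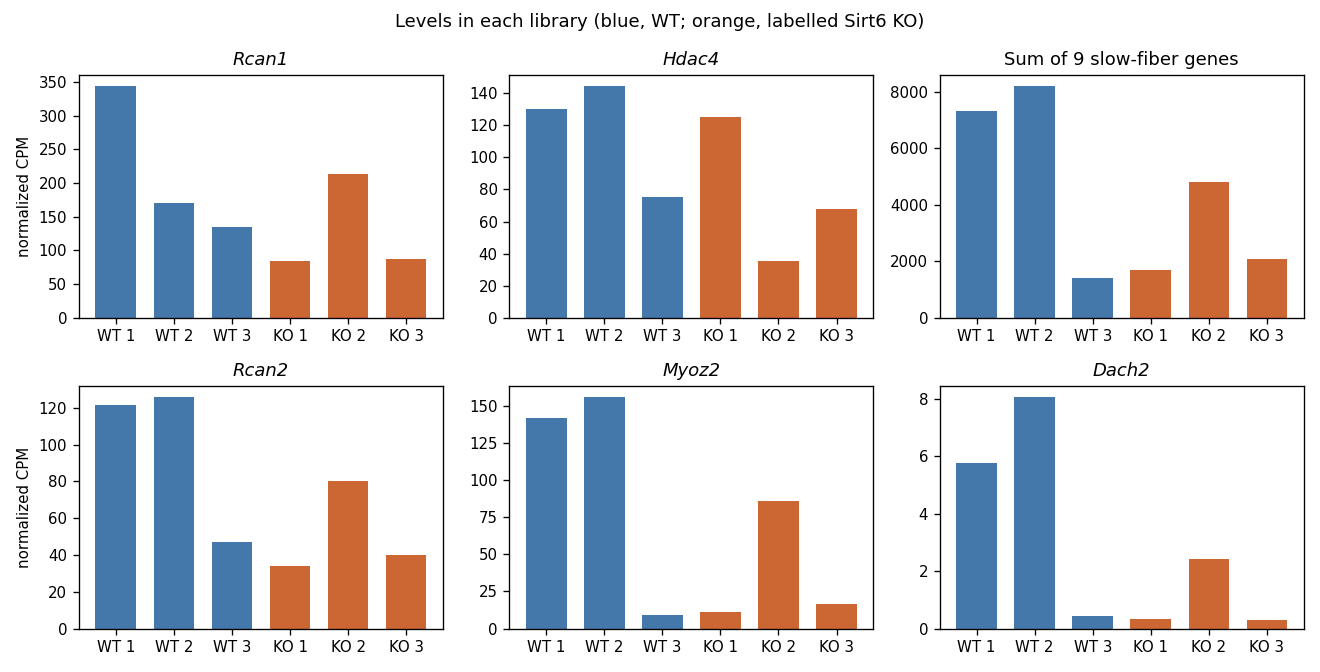
Normalized CPM (vertical axes, from 0) in each library for *Rcan1*, *Hdac4*, the sum of 9 slow-fiber genes, *Rcan2*, *Myoz2* and *Dach2*; blue bars are WT and orange bars *Sirt6* KO-labelled libraries. Except in *Hdac4*, the highest 3 bars are WT 1, WT 2 and *Sirt6* KO 2.

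*Nfatc1* (NCBI gene 18018, chromosome 18, 80606205 to 80713071), the NFAT factor known as a sensor of slow nerve activity in muscle fibers, had the smallest p of the 10 genes. It was at 52.9, 85.3 and 64.7 CPM in WT and at 37.7, 51.3 and 41.7 CPM in the *Sirt6* KO-labelled libraries. The groups did not overlap, although WT 1 and *Sirt6* KO 2 lay close together. The means were 67.6 ± 16.4 and 43.6 ± 6.98 CPM (SD, n = 3), a log2 fold change of -0.63 (standard error 0.20, 95% interval -1.09 to -0.17). In edgeR it missed the threshold (adjusted p = 0.0667). In DESeq2, the tool with too many false calls on counts simulated in an unlike setting, it passed (adjusted p = 0.0208). Leaving out 1 library at a time moved it between -0.77 and -0.43, and after removal of the trend over GC content it was -0.80 (adjusted p = 0.0556 by edgeR). Among the slow-fiber-rich libraries it was 51.3 CPM in *Sirt6* KO 2 against 52.9 and 85.3 CPM in WT 1 and 2, and among the others 37.7 and 41.7 CPM in *Sirt6* KO 1 and 3 against 64.7 CPM in WT 3. This division of the libraries was made after their values were seen and was not tested.

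**Figure D4:**
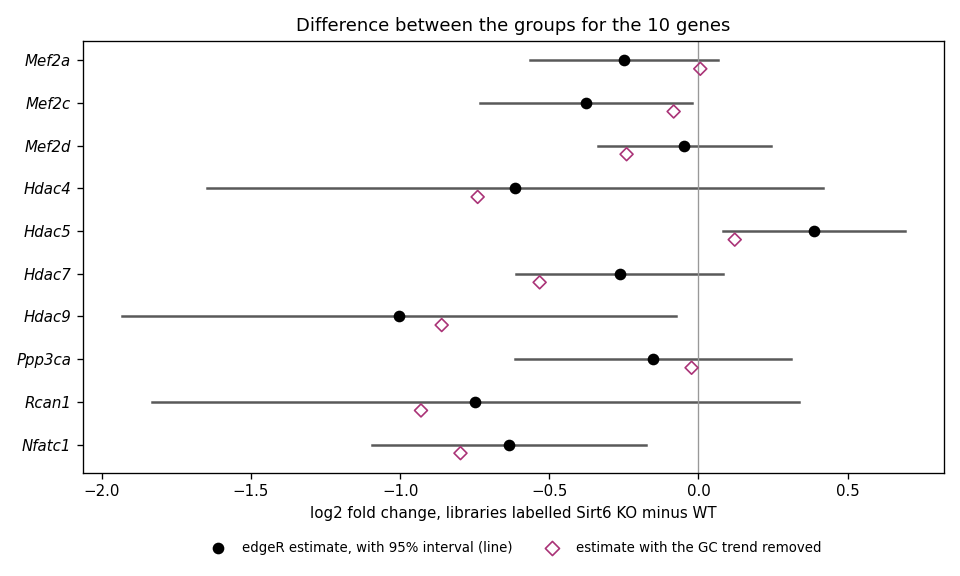
Log2 fold change (horizontal axis) of the 10 genes in *Sirt6* KO-labelled libraries relative to WT; black points and lines are edgeR's estimates with 95% intervals, and open diamonds are estimates after removal of each library's trend over GC content. The intervals of *Mef2c*, *Hdac5*, *Hdac9* and *Nfatc1* do not reach 0. The diamonds of *Mef2a*, *Mef2c*, *Hdac5*, *Hdac9* and *Ppp3ca* lie closer to 0 than the points, and those of the other genes lie farther from 0.

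Per transcript length, the order of the 10 genes in WT was *Mef2c* (249 ± 20.9 TPM), *Rcan1* (221 ± 135), *Ppp3ca* (115 ± 17.4), *Mef2d* (101 ± 9.92), *Mef2a* (93.0 ± 2.95), *Hdac4* (32.3 ± 12.4), *Nfatc1* (32.0 ± 8.09), *Hdac5* (29.5 ± 5.31), *Hdac7* (7.70 ± 2.12) and *Hdac9* (1.02 ± 0.322; SD, n = 3). Neighbours in this order overlapped except at the steps from *Mef2a* to *Hdac4*, from *Hdac5* to *Hdac7* and from *Hdac7* to *Hdac9*. In the *Sirt6* KO-labelled libraries the first 5 genes kept this order, from *Mef2c* (177 ± 27.3 TPM) to *Mef2a* (72.8 ± 10.6). *Hdac5* (35.6 ± 2.46 TPM) came next there, without overlap with *Nfatc1* (19.2 ± 2.70), whereas *Nfatc1* and *Hdac4* (19.2 ± 12.1) overlapped.

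Of 58 other genes of the pathway, 56 were tested, and 10 of them (17.9%, against 16.2% of all genes tested) passed the threshold in edgeR. Of the 56, 4 were lower and 6 higher, against 8.39% lower and 7.85% higher among all genes tested, and the median log2 fold change of the 56 was -0.07. These counts changed when single libraries were left out, as the counts over all genes did. Without WT 1, WT 2, *Sirt6* KO 1 or *Sirt6* KO 3, 0 of the pathway genes passed, beside 440, 249, 8 and 13 of all genes. Without *Sirt6* KO 2, 2 passed, beside 873 of all genes, and without WT 3, 23 passed, beside 4582 of 14115. After removal of the trend over GC content 6 passed, among them *Sik1* and *Hdac3* of the 10 named here. None of these 10 reversed its direction in the 14 alternatives run.

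Among the other calcineurin subunits, all 3 had lower means without overlap, where 40% of all genes tested had no overlap. Of these 3 only the gamma catalytic subunit *Ppp3cc* passed, at 26.5, 27.9 and 29.3 CPM in WT and 20.8, 17.8 and 16.7 CPM in the *Sirt6* KO-labelled libraries (log2 fold change -0.60, adjusted p = 0.0213 by edgeR). The most abundant catalytic subunit by TPM in this list, *Ppp3cb*, was at 325, 308 and 491 CPM against 288, 269 and 291 CPM, which did not pass (-0.41, adjusted p = 0.174 by edgeR). Of 9 inhibitors and anchors of calcineurin, 1 passed: *Cabin1*, an inhibitor that also binds MEF2, was at 12.5, 14.6 and 11.8 CPM in WT and at 18.5, 19.1 and 18.7 CPM in the *Sirt6* KO-labelled libraries (0.54, adjusted p = 0.0272 by edgeR). *Myoz1*, the calcineurin-binding Z-disc protein of fast fibers and the most abundant of these 9, had a log2 fold change of 0.19 (adjusted p = 0.564 by edgeR). Its slow-fiber relative *Myoz2* was at 142, 156 and 9.35 CPM in WT and at 11.1, 86.1 and 16.7 CPM in the *Sirt6* KO-labelled libraries, and *Rcan2*, a relative of *Rcan1*, was at 122, 126 and 47.0 against 34.2, 80.2 and 40.1 CPM. *Myoz2* and *Rcan2*, chosen after their values were seen, were both highest in the 3 slow-fiber-rich libraries, as *Rcan1* was.

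Calmodulin, which carries the calcium signal to calcineurin and to the kinases, is encoded by several genes. Of these *Calm3* was higher, at 229, 237 and 408 CPM in WT and at 679.9, 496 and 593 CPM in the *Sirt6* KO-labelled libraries (1.02, adjusted p = 0.0370 by edgeR). Of the 4 other NFAT factors, 2 were lower. *Nfatc3* was at 52.6, 49.7 and 53.5 CPM in WT and at 39.4, 31.2 and 38.9 CPM in the *Sirt6* KO-labelled libraries (-0.51, adjusted p = 0.0324 by edgeR), and *Nfat5*, the member that responds to osmotic stress and lacks a calcineurin-binding region, was at 63.7, 60.4 and 37.7 against 31.2, 29.4 and 27.0 CPM (-0.89, adjusted p = 0.0290 by edgeR). None of the 5 kinases that drive NFAT out of the nucleus passed in the main edgeR fit, with 3 at an unadjusted p under 0.05. For *Dyrk2* the adjusted p was 0.0527 by edgeR. *Dyrk2* passed in DESeq2, in limma on log2(FPKM + 1), and in edgeR after removal of the GC trend or without WT 3. It also passed in edgeR with size factors from DESeq2 or with at least 10 counts in every library. It did not pass in the other fits. *Csnk1a1*, the most abundant of these 5 kinases, had a log2 fold change of -0.23 (adjusted p = 0.254 by edgeR).

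Of 14 tested kinases that phosphorylate class IIa deacetylases, 2 passed. *Sik1*, a salt-inducible kinase that is a target of CREB, had the largest change of the pathway list, at 121, 174 and 41.3 CPM in WT and at 19.3, 28.0 and 17.7 CPM in the *Sirt6* KO-labelled libraries (-2.37, standard error 0.48, adjusted p = 0.0229 by edgeR). *Camk2g*, a subunit of calcium and calmodulin-dependent kinase II, was at 155, 153 and 185 CPM in WT and at 265, 210.4 and 242 CPM in the *Sirt6* KO-labelled libraries (0.54, adjusted p = 0.0403 by edgeR). *Camk2a*, the most abundant of these kinases, had a log2 fold change of 0.56 and did not pass (adjusted p = 0.169 by edgeR). None of the 7 genes for 14-3-3 proteins passed in the main edgeR fit, with 3 at an unadjusted p under 0.05. DESeq2, with the limit given above, called these 3 (*Ywhah*, *Ywhaq* and *Ywhaz*). Without WT 3 these 3 and *Ywhae* passed in edgeR. *Ywhaq* and *Ywhaz* passed with replicate number as a block, and *Ywhaz* in limma on log2(FPKM + 1). None passed in the other fits. *Ywhae*, the most abundant of the 7, had a log2 fold change of 0.31 (adjusted p = 0.241 by edgeR).

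Among 11 corepressors, other deacetylases and acetyltransferases, 3 deacetylases were higher and none lower. *Hdac3*, the catalytic partner that class IIa deacetylases recruit through NCoR and SMRT, was at 61.4, 64.4 and 81.9 CPM in WT and at 143, 100.01 and 113 CPM in the *Sirt6* KO-labelled libraries (0.78, adjusted p = 0.0290 by edgeR). *Hdac6*, a cytoplasmic tubulin deacetylase, was at 6.70, 8.02 and 8.67 against 14.4, 10.7 and 12.9 CPM (0.70, adjusted p = 0.0323 by edgeR). *Hdac11*, the single class IV member, was at 6.36, 5.32 and 6.84 against 13.3, 9.73 and 8.30 CPM (0.76, adjusted p = 0.0465 by edgeR).

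**Figure D5:**
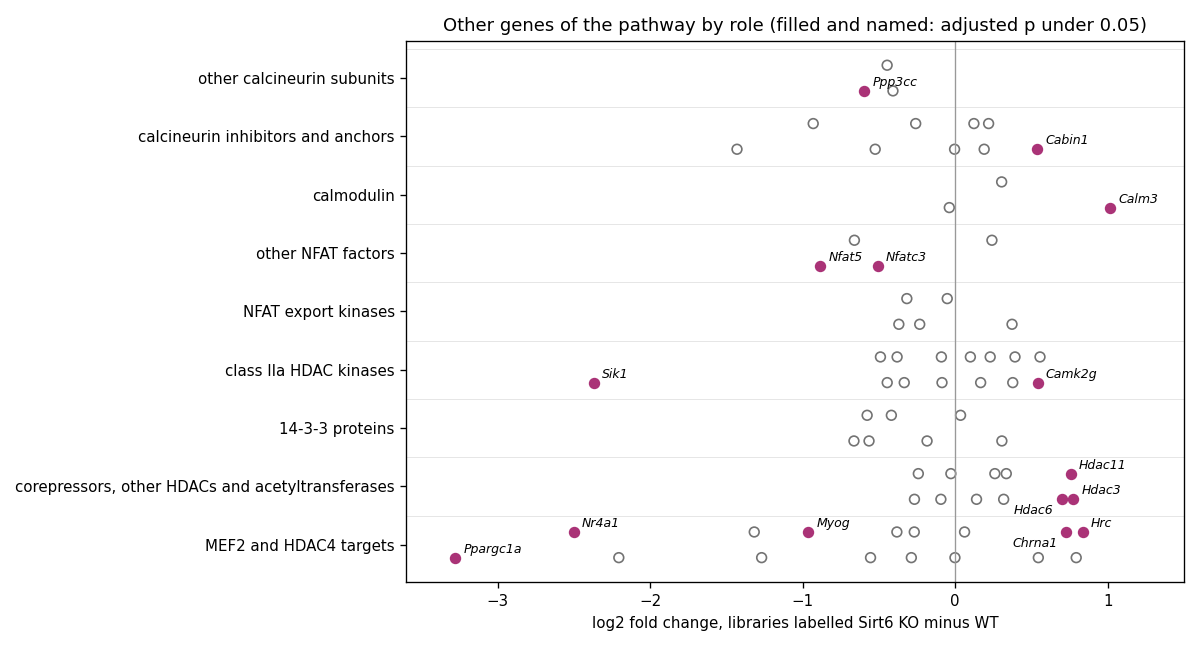
Log2 fold change (horizontal axis) of the tested genes of the pathway and target lists in *Sirt6* KO-labelled libraries relative to WT, 1 circle per gene, by role; filled and named circles passed an adjusted p under 0.05 in edgeR. Filled circles lie on both sides of 0, from -3.28 for *Ppargc1a* to 1.02 for *Calm3*.

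The 16 genes listed as targets of MEF2 or of the axis from HDAC4 to myogenin were all tested. Of these, 5 passed (31.2%, against 16.2% of all genes tested), with 3 lower and 2 higher, and the median log2 fold change was -0.33. *Ppargc1a*, the PGC-1 alpha gene that promotes mitochondrial biogenesis, was at 764, 1703 and 515 CPM in WT and at 45.6, 169.7 and 92.2 CPM in the *Sirt6* KO-labelled libraries (-3.28, standard error 0.61, adjusted p = 0.0186 by edgeR). *Nr4a1*, an orphan nuclear receptor, was at 596, 810.2 and 438 against 87.8, 152 and 85.6 CPM (-2.50, standard error 0.31, adjusted p = 0.0128 by edgeR). Both are also targets of CREB, and their changes were known when the list was written.

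*Myog*, the myogenin gene on which HDAC4 signalling in denervated muscle converges, was at 22.2, 27.7 and 22.4 CPM in WT and at 15.6, 9.14 and 12.3 CPM in the *Sirt6* KO-labelled libraries (-0.96, standard error 0.20, adjusted p = 0.0246 by edgeR). *Chrna1*, an acetylcholine receptor subunit under myogenin control, was higher, at 15.1, 18.7 and 19.9 against 34.7, 21.7 and 32.4 CPM (0.73, adjusted p = 0.0464 by edgeR). *Hrc*, a calcium-binding protein of the sarcoplasmic reticulum, was at 871, 945 and 1049 against 1670, 1683 and 1761 CPM (0.84, standard error 0.14, adjusted p = 0.0163 by edgeR). *Dach2*, the corepressor through which HDAC4 is known to raise myogenin, was at 5.75, 8.06 and 0.436 CPM in WT and at 0.342, 2.41 and 0.309 CPM in the *Sirt6* KO-labelled libraries, which is high in the 3 slow-fiber-rich libraries and overlaps between the groups. *Dach2* was named after its values were seen. The 5 satellite cell markers, cells that also express myogenic factors, summed to 21.4, 21.7 and 28.0 CPM in WT and to 47.6, 35.5 and 44.4 CPM in the *Sirt6* KO-labelled libraries, without overlap. *Cdh15* supplied most of this sum, with means of 17.6 ± 4.65 and 34.5 ± 5.24 CPM (SD, n = 3). *Pax7*, *Myf5* and *Cdh15* were higher by the test, whereas *Calcr* and *Vcam1* had log2 fold changes of -0.63 and -0.26 and did not pass. The part of these cells in the target values was not tested. Of the 16 genes 0 passed without *Sirt6* KO 1 or *Sirt6* KO 3, 1 without WT 1 or WT 2, 4 without *Sirt6* KO 2 and 8 without WT 3, and *Nr4a1* was the gene that passed in 4 of these 6 fits.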

How the data were processed

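RNA-seq of GAS muscle from 3 WT mice and 3 labelled *Sirt6* KO was used, grouped by the sample labels. The submitters' processing notes name HISAT2 2.1.0, Bowtie2 2.3.4.1 and StringTie 2.1.3b on mm10, whereas the reporting summary names STAR. The methods and labels name different TruSeq kits, and strand use in counting is not given in the sources used here. The methods and reporting summary also name different floxed *Sirt6* lines. The counts that the authors deposited are whole numbers per gene without normalization. The authors also deposited FPKM and TPM values, which are scaled for gene length and depth. The methods state that genes with FPKM above 1 were excluded; nothing was excluded here on that ground.

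The main test was that of edgeR 4.0.16 under R 4.3.3 (filterByExpr, 13801 of 24532 genes; TMM; quasi-likelihood test on group; Benjamini-Hochberg adjustment over all genes tested, threshold 0.05). Totals lay between 44845763 and 63016899 counts, and the biological coefficient of variation was 24.1%. SDs are over 3 libraries. Tried in its place were the Wald test of DESeq2 1.42.0, size factors from DESeq2, no filter, at least 10 counts in every library, limma 3.58.1 after quantile normalization of FPKM on a log2 scale (pseudocount 1 or 0.1) for genes with FPKM above 1 in at least 1 library, replicate number as a block, removal of each library's lowess trend (span 0.3) over the GC content of the longest GENCODE M21 transcript (known for 13750 genes), each library left out in turn, and CPM per kb in place of TPM. The count tests were tested on simulated data: edgeR recovered fewer of the changed genes than first required, and the requirement was then lowered with that value known. False calls were somewhat above the nominal rate in edgeR and well above it in DESeq2. The simulated counts were drawn with edgeR's dispersions and held far fewer changed genes than were called in these data. The GC correction was not simulated. The labels do not state that equal replicate numbers mark pairs. Correlations of deviations from the group means were -0.14, 0.34 and 0.22 for equal numbers and between -0.41 and 0.26 for unequal numbers.

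The 10 genes and all lists were chosen with earlier results of these data known. Named beside the 10 genes and *Sirt6* are the genes of the pathway and target lists with an adjusted p under 0.05 and the most abundant gene by TPM in each role of the pathway list; genes named only for a DESeq2 call, and those said to be so, were chosen after their values were seen. The results of 2 genes of these lists are not reported here. Marker lists for leukocytes, fibroblasts, adipocytes, Schwann cells, smooth muscle and fast fibers were also summed. Coordinates and start windows are from RefSeq (GRCm38.p6).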

Additional observations from a re-analysis of the deposited data

How the results depend on the processing

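Over all genes, 2242 passed in edgeR, 3420 in DESeq2 and 972 after removal of the trend over GC content, and between 8 and 4582 with each library left out in turn (8 without *Sirt6* KO 1, 13 without *Sirt6* KO 3, 249 without WT 2, 440 without WT 1, 873 without *Sirt6* KO 2, 4582 without WT 3). Of the 10 genes, 0 passed in edgeR, 1 (*Nfatc1*) in DESeq2, and between 0 and 1 with each library left out (*Hdac7* without WT 3, *Hdac9* without *Sirt6* KO 2). With the replicate block, 1 of the 10 genes passed (*Nfatc1*, log2 fold change -0.62, adjusted p = 0.0299 by edgeR), and 1922 of all genes did. The labels do not state that equal numbers mark pairs, so this fit is given for completeness. Of the pathway genes, 10 passed in edgeR, 16 in DESeq2 and 6 after removal of the GC trend, and between 0 and 23 with each library left out; of the target genes, 5 passed, and between 0 and 8 with each library left out. The direction of the 10 genes was kept in every alternative run except for *Mef2a* after removal of the GC trend (0.0062), *Mef2d* without WT 2 (0.0043) or *Sirt6* KO 2 (0.0228), within a leave-one-out range of -0.11 to 0.02, and *Ppp3ca* without WT 3 (0.0924), within a range of -0.27 to 0.09. *Sirt6* no longer passed without *Sirt6* KO 1 (adjusted p = 0.0606 by edgeR) or *Sirt6* KO 3 (0.065). *Hdac9* could not be tested on FPKM, where it did not pass the filter. By CPM per kb in place of TPM, 3 of 14 family shares moved by more than 1 SD, all in WT: *Hdac4* to 52.2%, *Hdac5* to 35.98% and *Hdac9* to 1.25%. The estimates followed GC content across genes (Spearman's rho 0.335 over 13750 genes, which are not independent replicates). The cause of these shifts was not tested. With 3 libraries a group, the 95% intervals of *Hdac4* and *Rcan1* were the widest of the 10.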

Other observations

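The 5 smooth muscle and pericyte genes summed to 429, 499.9 and 219 CPM in WT and to 215, 231 and 190.4 CPM in the *Sirt6* KO-labelled libraries. Leukocyte sums lay between 11.7 and 24.5 CPM, fibroblast sums between 468 and 864 CPM, Schwann cell sums between 9.18 and 28.3 CPM and adipocyte sums between 3.73 and 106 CPM, in each case with overlap between the groups. The fast-fiber sum lay between 124600 and 195270 CPM in WT and between 180250 and 211810 CPM in the *Sirt6* KO-labelled libraries.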
